A study of Mus musculus with 2 samples.

Results

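The insulin-like growth factor binding proteins described here are Igfbp2, Igfbp3, Igfbp4, Igfbp5, Igfbp6 and Igfbp7, all 6 of which were present among the 32286 features of both count matrices. They were chosen by gene family, by a rule that uses no measured value, but with earlier results of these data known. Their UMIs (unique molecular identifiers, each standing for 1 captured RNA molecule) were followed over basal, hedgehog-high, suprabasal and upper follicle cells among barcodes with at least 1500 genes and at most 10% mitochondrial UMIs.

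The study sorted YFP+ CD34- skin epidermal cells with high integrin α6 and profiled them by droplet 3′ RNA sequencing, with 1 library per genotype. The mice of the Survivin GOF library carried Krt14rtTA and Survivin GOF on top of Involucrin-CREER and Rosa-SmoM2, and their sorted cells were meant to express SmoM2-YFP and mCherry-tagged Survivin. Mice with Involucrin-CREER and Rosa-SmoM2 alone gave the control library, so both libraries carry SmoM2, the activated form of the hedgehog receptor component Smoothened, and differ by design in Krt14rtTA and Survivin GOF together. Recombination was driven by an Involucrin-promoter CreER and the tetracycline transactivator by Krt14, and the number and sex of the mice are not given in the sources used here.

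After the filters, 6494 Survivin GOF cells and 10294 control cells were kept, with a median of 12324.5 and 7648 UMIs per cell, and 6318 and 10124 of them were keratinocytes. Of the barcodes, 84 were shared by the libraries, 20 of them among kept cells. The gene for Survivin, Birc5, stood at 793 CPM in Survivin GOF keratinocytes and at 55.1 CPM in control keratinocytes, where CPM is a gene's UMIs as a proportion of the summed UMIs of the same cells, in parts per 1000000. YFP stood at 7.91 and 12.3 CPM, although the cells were sorted for it, and was higher in the hedgehog-high clusters (31.0 and 29.6 CPM in cluster 14). The libraries also differed in sex: 3607 cells were called female (Xist UMIs and no Y-linked UMI) and 1805 male in the Survivin GOF library, against 30 female and 7353 male in the control library, so sex and genotype cannot be told apart in any comparison over all cells. With 1 library per genotype there is no replicate check and no test. The 95% intervals given are exact and cover counting error only, and a gene was called higher or lower when its ratio passed 1.5-fold with at least 50 pooled UMIs.

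The binding proteins are secreted proteins that hold insulin-like growth factors (IGF-I and IGF-II) in the extracellular space, prolong their life and keep them from the IGF-I receptor until proteases release them. Igfbp2, Igfbp3, Igfbp4, Igfbp5 and Igfbp6 bind IGFs with high affinity, whereas Igfbp7 binds them weakly and is known mainly as an extracellular matrix protein of vessels and tumours. In skin, where IGF-I is made largely by dermal fibroblasts, binding proteins made by keratinocytes sit between that source and the receptor on basal cells.

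The genes lie at 5 separate places in the mouse genome (build mm10, GENCODE vM21). Igfbp2 (ENSMUSG00000039323, chr1:72824503-72852474, plus strand) and Igfbp5 (ENSMUSG00000026185, chr1:72857932-72874884, minus strand) converge on chromosome 1 with 5457 bases between their ends. Igfbp3 (ENSMUSG00000020427, chr11:7206086-7213923, minus strand) lies 3539 bases from Igfbp1, and Igfbp4 (ENSMUSG00000017493, chr11:99041244-99054392, plus strand) lies farther along the same chromosome. Igfbp6 (ENSMUSG00000023046) is at chr15:102144362-102149511 on the plus strand. Igfbp7 (ENSMUSG00000036256, chr5:77349240-77408041, minus strand) meets Polr2b, a subunit of RNA polymerase II, on the other strand, and their 3′ ends overlap by 85 bases. It also holds the antisense gene model Gm34648 within its span. Counting by strand is not stated, so reads in the shared bases cannot be told apart. Polr2b stood at 43.3 CPM in Survivin GOF and 31.6 CPM in control basal-like cells, and at 46.9 and 38.8 CPM in cluster 12 described below.

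Promoters are shown for the 4 members whose levels differed most between cell classes or libraries, so that neighbouring genes with unlike patterns (Igfbp2 and Igfbp5) can be read side by side. Each is the 120 bases before the RefSeq transcription start (GRCm38.p6, gene strand, 5′ to 3′), and capitals mark GGGCGG, the core of the GC box, on either strand.
Igfbp2, chr1:72824360-72824479, plus strand: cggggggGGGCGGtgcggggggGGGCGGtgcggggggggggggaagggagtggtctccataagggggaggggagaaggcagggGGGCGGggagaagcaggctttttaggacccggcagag
Igfbp5, chr1:72874866-72874985, minus strand: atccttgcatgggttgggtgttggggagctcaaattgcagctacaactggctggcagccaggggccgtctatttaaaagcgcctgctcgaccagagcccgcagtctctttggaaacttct
Igfbp3, chr11:7213924-7214043, minus strand: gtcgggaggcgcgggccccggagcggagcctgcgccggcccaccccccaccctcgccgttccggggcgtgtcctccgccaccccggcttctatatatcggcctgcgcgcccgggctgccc
Igfbp7, chr5:77408046-77408165, minus strand: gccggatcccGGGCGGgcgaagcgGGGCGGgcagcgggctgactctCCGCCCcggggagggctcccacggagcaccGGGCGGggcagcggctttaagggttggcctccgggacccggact

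The promoters differed in base composition. Over the 250 bases before the start, GC content was 67.2% for Igfbp2, 58.8% for Igfbp5, 73.2% for Igfbp3 and 74% for Igfbp7, against a median of 52.4% over 32851 mouse promoters. GGGCGG, searched on both strands over the same 250 bases, occurred 3 times for Igfbp2, 4 times for Igfbp7 and in no other member, while 32.7% of all promoters held it. TATAAA, the TATA box core, occurred 28 bases before the start of Igfbp4 and 148 bases before that of Igfbp6, and 12.4% of all promoters held it. ACCACCC, the core of the Gli motif, occurred in no window of the 6 members and in 3.92% of all promoters. These matches are descriptions of letters only.

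Cell classes were built without the 6 members, so their levels did not shape the clusters. Of 25 clusters, those named basal-like, suprabasal-like and upper follicle-like held 1514, 497 and 467 Survivin GOF cells and 1551, 597 and 362 control cells. Krt14, a basal keratin, reached 31663 CPM in Survivin GOF and 29512 CPM in control basal-like cells. Krt79, an upper follicle keratin, reached 2852 and 3637 CPM in upper follicle-like cells, and Krt10, an early differentiation keratin, 21730 and 32212 CPM in suprabasal-like cells. Most Survivin GOF basal-like cells were in clusters 20 and 5 (776 and 661 cells) and most control basal-like cells in clusters 10 and 5 (1058 and 483 cells), so basal-like values also rest on different clusters. Hedgehog-high-like cells formed cluster 12 (267 Survivin GOF and 913 control cells) and cluster 14 (751 and 879 cells). Ptch1, a direct hedgehog target, stood at 485 and 471 CPM in cluster 12 and at 692 and 691 CPM in cluster 14, against 17.0 and 42.2 CPM in basal-like cells. None of the fixed hedgehog markers and 1 upper follicle marker (Krt17) was among the 10 leading genes of cluster 12, so the libraries are compared below in clusters 12 and 14 separately.

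Within each library the family divided over the classes (the plot of levels by class). Among the 4 classes, Igfbp2 was highest in basal-like cells, Igfbp3 in basal-like cells and cluster 12, Igfbp7 and Igfbp5 in hedgehog-high-like cells, and Igfbp4 in hedgehog-high-like and upper follicle-like cells. Igfbp6 was low in all 4 and highest in upper follicle-like cells. In the Survivin GOF library, 3 of 6 members (Igfbp4, Igfbp5, Igfbp7) were past 2-fold higher in hedgehog-high-like than in basal-like cells, beside 15.2% of 11906 genes, and 2 (Igfbp2, Igfbp3) were past 2-fold lower, beside 5.44%. In the control library the same 3 were past 2-fold higher, beside 14.6% of 11636 genes, and 1 of the 5 members with at least 50 pooled UMIs (Igfbp2) was past 2-fold lower, beside 3.61%.

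**Figure D1:**
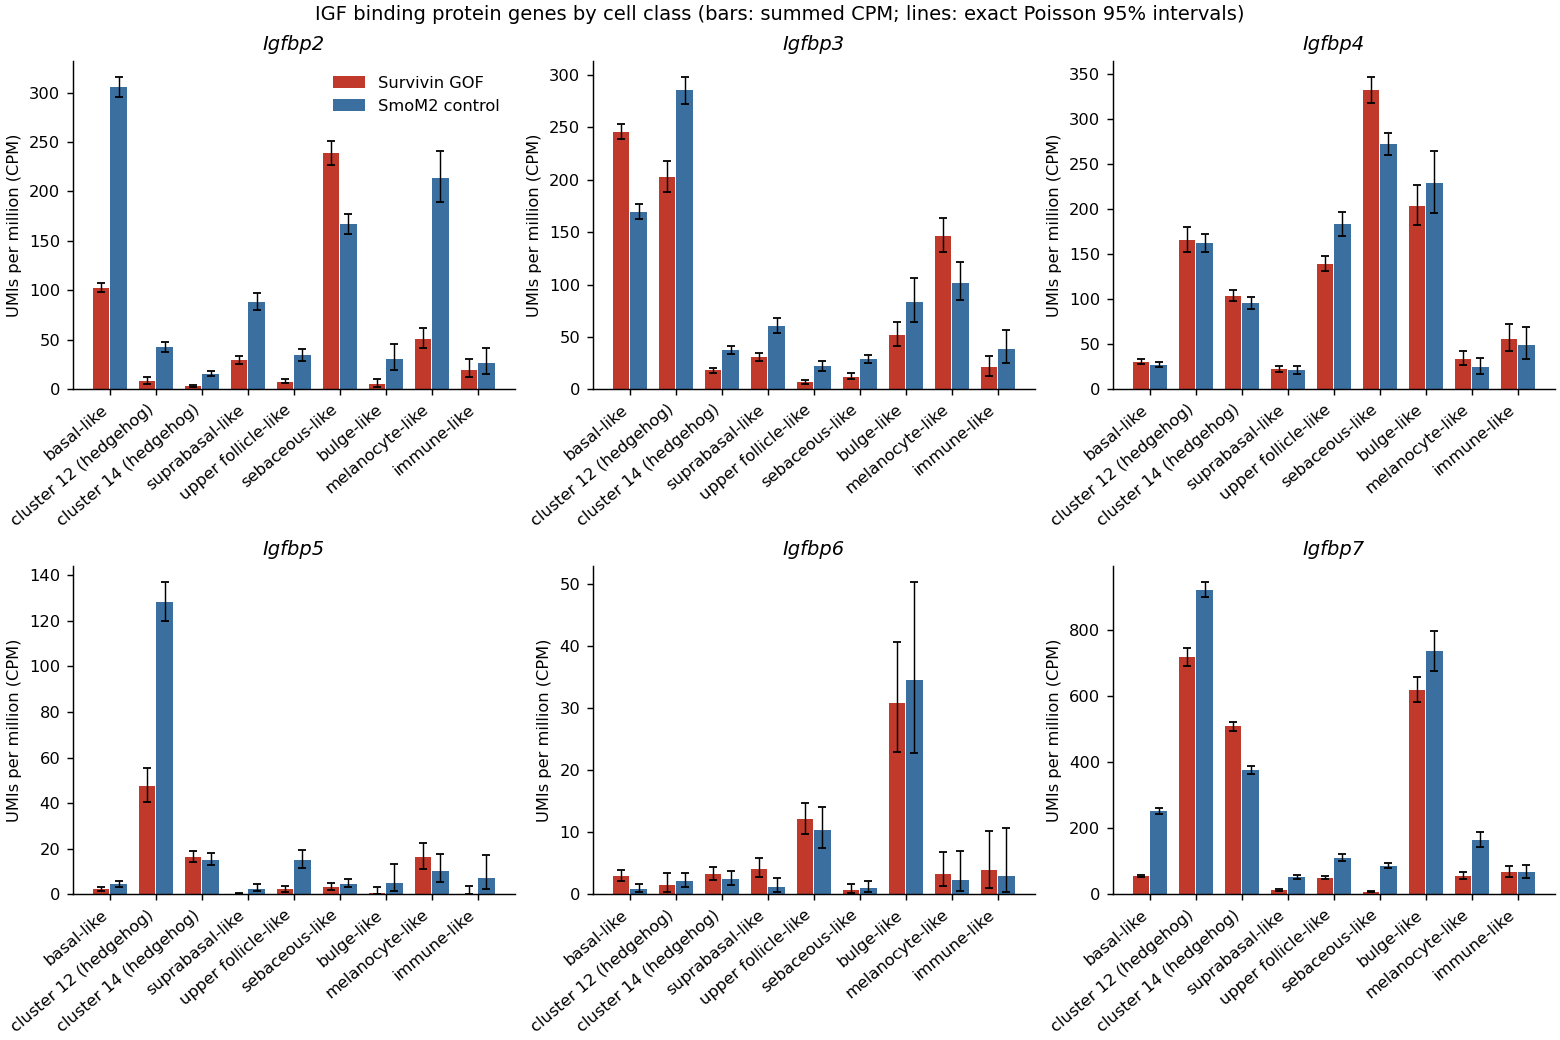
Level of each gene (CPM, linear axis from 0) in each cell class, with Survivin GOF bars in red left of SmoM2 control bars in blue and lines for exact Poisson 95% intervals; clusters 12 and 14 carry the hedgehog markers. Igfbp7 reached 719 and 924 CPM in cluster 12, whereas Igfbp2 reached 102 and 306 CPM in basal-like cells.

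The members with the strongest tie to hedgehog-high-like cells were Igfbp7 and Igfbp5. Igfbp7 stood at 556 CPM in hedgehog-high-like and 55.0 CPM in basal-like cells of the Survivin GOF library, a ratio of 10.1 (95% interval 9.47 to 10.8). In the control library the levels were 613 and 253 CPM, a ratio of 2.43 (2.33 to 2.53). The pooled hedgehog-high-like levels were thus close to each other, but they combine opposite differences. The log2 ratio of Igfbp7, Survivin GOF over control, was -0.362 in cluster 12 and 0.434 in cluster 14. The libraries parted in basal-like cells, but not only there. Igfbp7 stood at 12.6 and 52.6 CPM in suprabasal-like cells and at 50.8 and 111 CPM in upper follicle-like cells. The Survivin GOF basal-like level was not above that of immune-like cells of the same library (68.9 CPM). It was 4.37-fold (3.55 to 5.44) above that of suprabasal-like cells (12.6 CPM). Tail scale-like cells held 0.0786% and sebaceous-like cells 0.302% of Survivin GOF Igfbp7 UMIs, beside 2.34% and 6.11% of all UMIs. How much of the value under the ratio of 10.1 is background was not tested. Igfbp5, a heparin-binding member, stood at 23.5 CPM against 2.31 CPM in the Survivin GOF library, 10.2-fold (7.37 to 14.3). In the control library it stood at 63.96 CPM against 4.47 CPM, 14.3-fold (10.8 to 19.4). Cluster 13, a cycling cluster in which 10 of 13 hedgehog markers were raised, was alike: Igfbp7 stood there at 572 and 612 CPM and Igfbp5 at 27.6 and 41.4 CPM in Survivin GOF and control cells.

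Igfbp4, an inhibitory binding protein that the protease Pappa cleaves, stood 3.83-fold higher (3.49 to 4.22) in hedgehog-high-like than in basal-like Survivin GOF cells and 4.51-fold higher (4.004 to 5.10) in the control cells. Its basal-like levels, 30.7 and 27.5 CPM, were below those of immune-like cells (55.9 and 49.0 CPM). They were near those of suprabasal-like cells (22.8 and 21.2 CPM). Tail scale-like cells held 0.12% of Survivin GOF and 2.32% of control Igfbp4 UMIs, beside 2.34% and 5.08% of all UMIs. How much of the basal-like level is background was not settled, so these folds and those of upper follicle-like over basal-like cells are over an uncertain low value. In upper follicle-like over basal-like cells, Igfbp4 and Igfbp6, a member that prefers IGF-II, were past 2-fold higher in the Survivin GOF library (2 of 6 members, beside 8.16% of genes). Their ratios were 4.54 and 4.07. In the control library Igfbp4, Igfbp5 and Igfbp6 were past 2-fold higher (3 of 6, beside 8.6%), with ratios of 6.65, 3.398 and 11.9. Igfbp2 and Igfbp3 were past 2-fold lower in upper follicle-like than basal-like cells in the Survivin GOF library, beside 4.81% of genes. In the control library Igfbp2, Igfbp3 and Igfbp7 were, beside 4.28%. Of the 4 classes, the suprabasal-like one was the poorest in the family: Igfbp2, Igfbp3 and Igfbp7 were each past 2-fold lower there than in basal-like cells, beside 10.4% of genes in the Survivin GOF library and 9.37% in the control library. No member was past 2-fold higher there in either library, beside 5.5% and 7.71% of genes. Igfbp2 stood at 0.286 and 0.289 times its basal-like level.

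Summed, the 6 genes gave 439 CPM in Survivin GOF basal-like cells and 761 CPM in control basal-like cells. Since these are 3′ counts with 1 UMI per molecule, shares of this sum need no correction for length. In Survivin GOF basal-like cells Igfbp3 made up 55.9% of the sum, Igfbp2 23.4% and Igfbp7 12.5%. In control basal-like cells Igfbp2 made up 40.2%, Igfbp7 33.2% and Igfbp3 22.3%. The leading binding protein thus differed between the libraries over all basal-like cells, but not in male-called ones, where Igfbp2 led in both (177 and 306 CPM, against 131 and 163 CPM of Igfbp3). In the hedgehog-high-like clusters Igfbp7 led in both libraries, with 62.8% and 59.8% of the sum in cluster 12 and 77.8% and 69.4% in cluster 14. In upper follicle-like cells Igfbp4 led, with 63.5% and 48.6%.

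The partition of each gene's keratinocyte UMIs reads these levels together with class size. Basal-like cells held 48.2% of Survivin GOF and 19.2% of control Igfbp3 UMIs, beside 18.5% and 11.5% of all UMIs. They held 33.1% and 24.5% of Igfbp2 UMIs. Igfbp3 was the member whose basal-like share differed by the most percentage points between the libraries.

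Clusters 12 and 14 held most of the Igfbp5 UMIs in both libraries, but not in equal parts. Cluster 12 held 24.9% of Survivin GOF and 45.1% of control Igfbp5 UMIs, with 3.53% and 6.71% of all UMIs. Cluster 14 held 30.2% and 7.03%, with 12.3% and 8.84% of all UMIs. Of Igfbp7 UMIs, cluster 12 held 15.02% and 21.1% and cluster 14 held 37.3% and 11.3%.

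The cells outside the 4 classes were a large remainder. The 4 classes together held 39.5% of Survivin GOF and 31.6% of control Igfbp2 UMIs, 61.3% and 45.2% of Igfbp3, 48.7% and 35.98% of Igfbp4, 64.1% and 58.7% of Igfbp5, 51.0% and 35.7% of Igfbp6 and 61.3% and 44.8% of Igfbp7, with 50.2% and 36.2% of all UMIs. Sebaceous-like cells held 25.4% and 7.98% of Igfbp2 and 26.5% and 21.6% of Igfbp4. Cycling clusters held 28.5% and 17.4% of Igfbp5. Bulge-like cells, a small group with 1.65% and 0.786% of all UMIs, held 11.3% and 10.3% of Igfbp6.

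**Figure D2:**
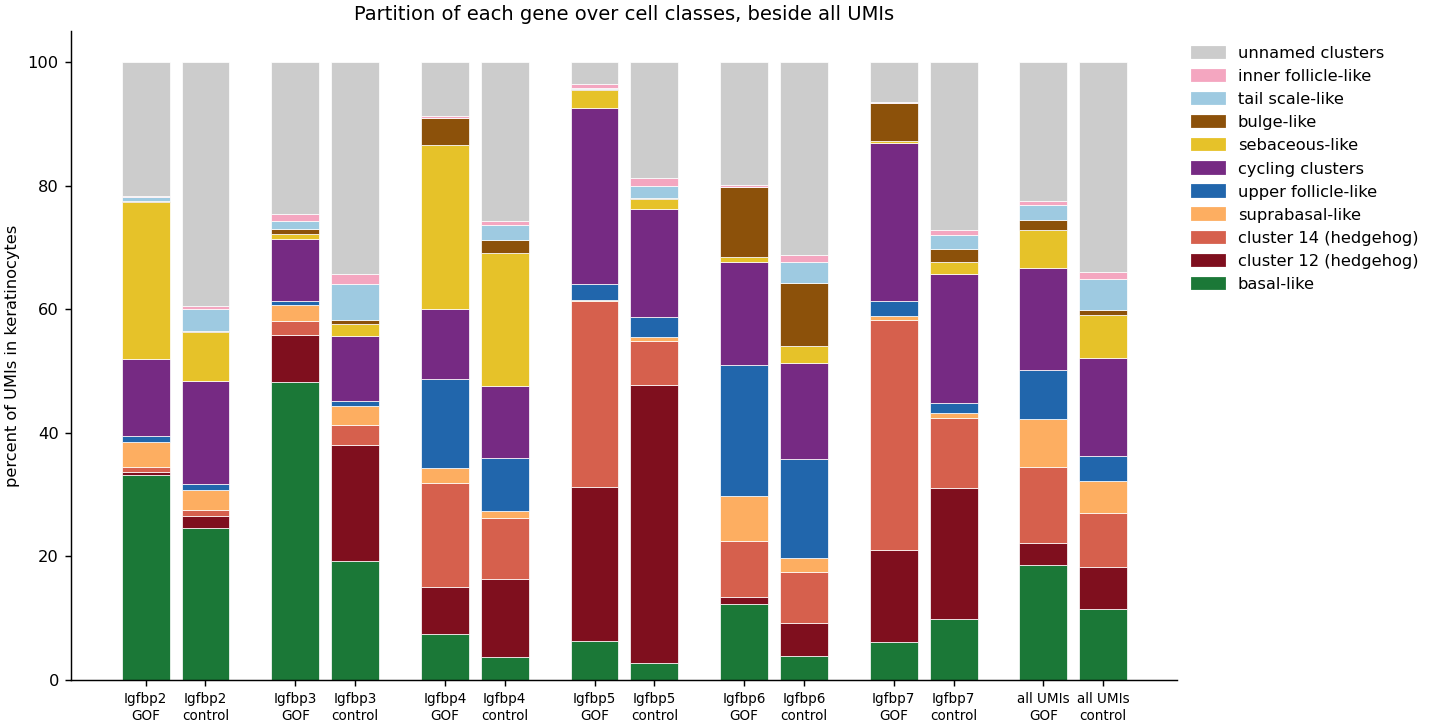
Percent of each gene's keratinocyte UMIs by cell class (stacked bars, Survivin GOF left of control), with the partition of all UMIs as the last pair. Basal-like cells held 48.2% of Survivin GOF Igfbp3 UMIs, and cluster 12 held 45.1% of control Igfbp5 UMIs.

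Over all keratinocytes, 3 of 6 members were called lower in the Survivin GOF library (Igfbp2, Igfbp5, Igfbp7), beside 5.41% of 14579 genes, and 1 was called higher (Igfbp6), beside 6.82%. Igfbp2 stood at 57.3 and 143 CPM, a ratio of 0.400 (95% interval 0.387 to 0.412). Igfbp5 stood at 6.76 and 19.1 CPM, a ratio of 0.354 (0.324 to 0.387). Igfbp7 stood at 169 and 294 CPM, a ratio of 0.574 (0.563 to 0.585). Igfbp6 stood at 4.50 and 2.65 CPM, a ratio of 1.70 (1.45 to 1.98). Igfbp3, at 94.4 and 102 CPM, and Igfbp4, at 76.4 and 86.1 CPM, were within 1.5-fold. The median log2 ratio over all genes was 0.08.

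Restricted to male-called cells, the same 3 members and Igfbp3 were lower in the Survivin GOF library (4 of 6, beside 7.09% of 13630 genes), with Igfbp6 again higher (beside 5.5%). Igfbp2 stood at 92.5 and 140 CPM and Igfbp3 at 51.9 and 100 CPM in these cells. Igfbp4 changed sides, at 98.2 and 87.7 CPM. Igfbp7 stood at 132 and 290 CPM.

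**Figure D3:**
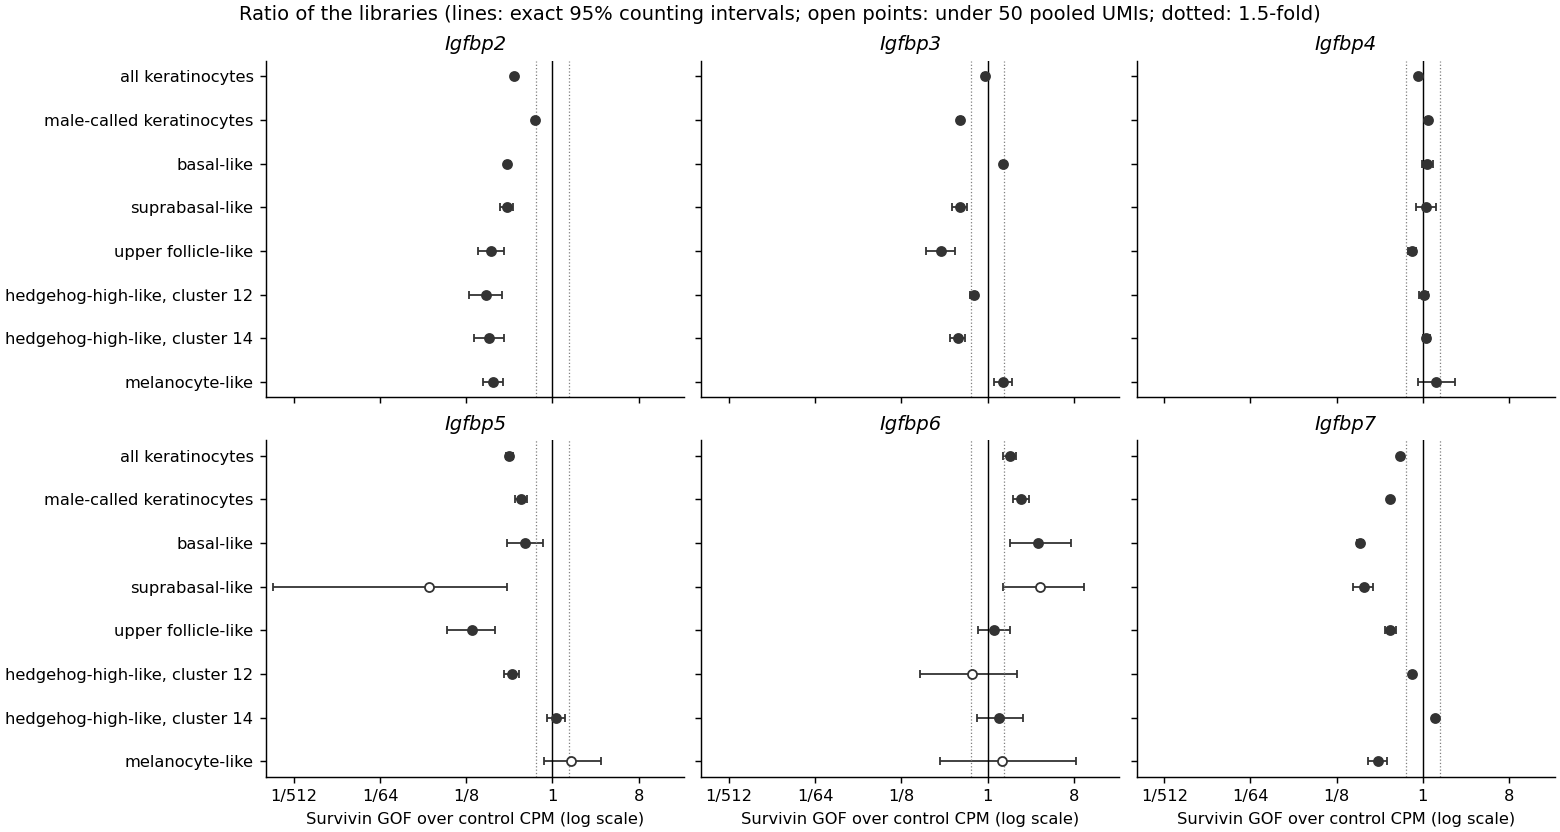
Ratio of CPM, Survivin GOF over control (log axis, lines for exact 95% counting intervals, open points for under 50 pooled UMIs, dotted lines at 1.5-fold), by gene and cell population. Igfbp2 lay left of 1 in each population drawn, whereas Igfbp3 stood at 1.45 in basal-like and 0.325 in upper follicle-like cells and Igfbp7 at 0.217 in basal-like cells and 1.35 in cluster 14.

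In basal-like cells, 3 of 6 members were called lower in the Survivin GOF library (beside 4.15% of 11099 genes) and 1 was called higher (beside 6.08%). Igfbp7 stood at 55.0 CPM in Survivin GOF cells and at 253 CPM in control cells, a ratio of 0.217 (0.202 to 0.234), with the Survivin GOF level not above that of immune-like cells. Igfbp2 stood at 102 and 306 CPM, a ratio of 0.335 (0.317 to 0.355). Both differences were also seen in cluster 5, the basal-like cluster well filled in both libraries: Igfbp7 stood there at 80.2 and 235 CPM and Igfbp2 at 114 and 296 CPM. Igfbp5 was lower too, at 2.31 and 4.47 CPM, on 42 and 51 UMIs, but within 1.5-fold in male-called cells, at 3.82 and 4.61 CPM. Igfbp6 was higher, at 2.97 and 0.877 CPM, on 54 and 10 UMIs (ratio 3.39, 1.71 to 7.47).

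Igfbp3 went the other way in basal-like cells, just inside the 1.5-fold limit. It stood at 245 and 170 CPM (ratio 1.45, 1.37 to 1.53), and in cluster 5 at 334 and 225 CPM (1.49, 1.37 to 1.61). Its UMIs were uneven over cells: the highest cell held 104 UMIs in the Survivin GOF library and 34 in the control library, and the 10% of basal-like cells with the most UMIs of the gene held 63.7% and 62.7% of them. The spread between cells is thus wider than counting error, and the intervals do not cover it. In male-called basal-like cells the order turned round, with 131 CPM in Survivin GOF and 163 CPM in control cells. Igfbp4, at 30.7 and 27.5 CPM, was within 1.5-fold.

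Levels moved with the sex calls inside the Survivin GOF library, where both sexes could be compared. In its 918 female-called and 414 male-called basal-like cells, Igfbp3 stood at 314 and 131 CPM, a ratio of 2.39 (2.20 to 2.60). Igfbp2 stood at 63.8 and 177 CPM in the same cells, a ratio of 0.361 (0.326 to 0.399). Igfbp7 stood at 66.1 and 36.2 CPM, a ratio of 1.83 (1.55 to 2.16). Female-called basal-like cells thus had more Igfbp3 and less Igfbp2 than male-called ones from the same library. Within cluster 5 the ratios were 2.89 (2.56 to 3.28) for Igfbp3 and 0.584 (0.503 to 0.678) for Igfbp2. In cluster 12, with 201 female-called and 39 male-called cells, Igfbp3 went the other way, at 175 and 273 CPM (0.643, 0.524 to 0.795). The Igfbp7 ratio was 1.05 (1.002 to 1.107) in hedgehog-high-like cells. Female-called and male-called cells may come from different mice, and neither mouse nor sex was tested as a source of these differences.

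The difference in Igfbp7 and Igfbp2 between the libraries held within the male-called cells. In male-called basal-like cells Igfbp7 stood at 36.2 CPM in Survivin GOF and 249 CPM in control cells, a ratio of 0.145 (0.124 to 0.169). Igfbp2 stood at 177 and 306 CPM, a ratio of 0.579 (0.536 to 0.626), nearer to 1 than over all basal-like cells. Igfbp6 rested on 15 and 5 UMIs in these cells.

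The hedgehog-high-like clusters differed from each other in both libraries. Cluster 12 had more of each member but Igfbp6 than cluster 14. Summed, the 6 genes gave 1145 CPM in cluster 12 and 655 CPM in cluster 14 of the Survivin GOF library. In the control library these sums were 1544 and 543 CPM. Igfbp3 stood at 203 CPM in cluster 12 and 18.2 CPM in cluster 14 of the Survivin GOF library, and at 285 and 37.4 CPM in the control library. Igfbp5 stood at 47.7 and 16.5 CPM in the Survivin GOF library, and at 128 and 15.2 CPM in the control library.

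In cluster 12, 2 of the 5 members with at least 50 pooled UMIs were called lower in the Survivin GOF library (Igfbp2, Igfbp5), beside 6.14% of 10085 genes, and none was called higher, beside 5.62%. Igfbp2 stood at 8.68 and 42.8 CPM (ratio 0.203, 0.134 to 0.296). Igfbp5 stood at 47.7 and 128 CPM (0.372, 0.313 to 0.440). Among male-called cells of this cluster, 39 in the Survivin GOF library and 667 in the control library, Igfbp5 stood at 123 and 128 CPM, so the difference was not seen there. In the 201 female-called cells of the Survivin GOF library it stood at 38.9 CPM. Igfbp7 stood at 719 and 924 CPM (0.778, 0.742 to 0.815) and Igfbp4 at 166 and 162 CPM (1.02, 0.921 to 1.13), both within 1.5-fold. In the male-called cells Igfbp4 stood at 266 and 154 CPM, past 1.5-fold, and Igfbp2 at 16.6 and 43.4 CPM, the first on 7 UMIs.

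In cluster 14, 2 of 6 members were called lower (Igfbp2, Igfbp3), beside 4.86% of 11497 genes, and none was called higher, beside 5.44%. Igfbp2 stood at 3.47 and 16.0 CPM (0.217, 0.150 to 0.309) and Igfbp3 at 18.2 and 37.4 CPM (0.486, 0.408 to 0.578). Igfbp7 stood at 509 and 377 CPM (1.35, 1.30 to 1.41), and at 525 and 382 CPM in male-called cells. Igfbp7 was thus somewhat higher in cluster 14 of the Survivin GOF library, in contrast to its level in basal-like cells, and the difference between these ratios was not tested. Igfbp5 stood at 16.5 and 15.2 CPM (1.09, 0.870 to 1.37). In male-called cells it stood at 24.8 and 15.6 CPM (1.59, 1.20 to 2.11), past 1.5-fold, and Igfbp6 at 6.34 and 2.44 CPM on 24 and 18 UMIs.

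Markers of other cell types were read beside these clusters because Igfbp5 and Igfbp7 are also made by fibroblasts and vessels. The 5 endothelial markers summed to 0 and 1.05 CPM in cluster 12 and to 0.827 and 1.03 CPM in cluster 14. The 6 fibroblast markers summed to 2982 and 2272 CPM in cluster 12 and to 2264 and 667 CPM in cluster 14, against 162 and 141 CPM in basal-like cells, and nearly all of it was Dcn, at 2965 and 2243 CPM in cluster 12. Of the 6 fibroblast markers, Pdgfra, Col3a1 and Lum were at 0 in cluster 12 of the Survivin GOF library and Pdgfra in that of the control library. Col1a2 stood at 16.8 and 28.7 CPM in cluster 12. In cluster 14 only Pdgfra was at 0 in the Survivin GOF library, and no fibroblast marker was at 0 in the control library.

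In suprabasal-like cells, 3 of the 4 members with at least 50 pooled UMIs were called lower in the Survivin GOF library (Igfbp2, Igfbp3, Igfbp7), beside 6.58% of 9673 genes, and none higher, beside 5.04%. Igfbp7 stood at 12.6 and 52.6 CPM (0.239, 0.187 to 0.303) and Igfbp2 at 29.3 and 88.4 CPM (0.331, 0.281 to 0.390). Igfbp3 stood at 30.7 and 60.5 CPM (0.508, 0.427 to 0.603), a value that depends on how the class is drawn: at Leiden resolution 0.6 its log2 ratio was -0.02 in place of -0.98. The class joins cluster 2 (284 Survivin GOF and 461 control cells) and cluster 6 (213 and 136 cells). Igfbp3 was lower in Survivin GOF cells of cluster 2 but higher in those of cluster 6. There it made up 31.8% and 14.6% of family sums of 128 and 159 CPM. In male-called suprabasal-like cells Igfbp3 stood at 18.1 and 65.3 CPM. Igfbp5 had 1 and 13 UMIs and Igfbp6 had 32 and 6.

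In upper follicle-like cells, 4 of 6 members were called lower (Igfbp2, Igfbp3, Igfbp5, Igfbp7), beside 4.19% of 10124 genes, and none higher, beside 4.12%. Igfbp7 stood at 50.8 and 111 CPM (0.457, 0.398 to 0.524), and in male-called cells at 22.4 and 112 CPM (0.199, 0.153 to 0.258). Female-called cells of the Survivin GOF library held 61.1 CPM. Over the class Igfbp2 stood at 7.85 and 34.6 CPM (0.227, 0.165 to 0.308). Igfbp3 stood at 7.21 and 22.2 CPM. Igfbp5 stood at 2.19 and 15.2 CPM, but 1 control cell held 16 UMIs, 26.2% of the control total, and in male-called cells there were 0 and 43 UMIs. Igfbp4, the leading member of this class, stood at 139 and 183 CPM (0.762, 0.693 to 0.838), within 1.5-fold, as was Igfbp6 at 12.1 and 10.5 CPM.

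Detection per cell was compared after thinning every cell to 3000 UMIs, which left out 10 and 91 keratinocytes. Igfbp7 was detected in 24.2% of Survivin GOF and 47.6% of control keratinocytes (41.4% and 69.9% before thinning). In basal-like cells it was detected in 12.5% and 50.9%, and in cluster 12 in 82.0% and 86.9%. Igfbp2 was detected in 21.8% and 52.4% of basal-like cells. For Igfbp3 the basal-like shares were 30.6% and 25.9%, closer to each other than the levels.

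Immune-like cells, which are not keratinocytes, served as a guide to the level that RNA from other cells can bring. Their median depths were 17742.5 and 9868.5 UMIs, against 9894.5 and 6767 in basal-like cells. The 13 basal markers summed to 23570 and 20232 CPM in these cells, against 12015 and 7753 CPM in suprabasal-like cells. Immune-like cells were only 50 and 58 in number, and their own expression of these genes was not excluded. There Igfbp2 was detected in 2% and 10.3%, Igfbp3 in 6% and 5.17%, Igfbp4 in 14% and 10.3% and Igfbp7 in 12% and 13.8%. Shares at or below these were not told apart from background. They included Igfbp2 in cluster 14 (0.534% and 4.47%) and in upper follicle-like cells (1.93% and 6.13%), Igfbp3 in upper follicle-like cells (2.36% and 4.46%), Igfbp4 in basal-like cells (8.01% and 8.36%), and Igfbp7 in suprabasal-like cells (2.41% and 13.2%). Igfbp7 in Survivin GOF basal-like cells, at 12.5%, was close to the 12% of immune-like cells.

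Barcodes that failed the cell filter gave the same reading for Igfbp2 and Igfbp7, the genes lower in most classes. In 4516 and 13851 such barcodes Igfbp2 stood at 31.5 and 113 CPM and Igfbp7 at 73.7 and 222 CPM. Melanocyte-like cells held Igfbp2 at 51.1 and 214 CPM and Igfbp7 at 55.8 and 166 CPM. In failed barcodes and melanocyte-like cells the libraries thus differed in the same direction as in most classes, and the part of free RNA in the class ratios was not tested. Krt10, which basal cells make little of, stood at 626 and 1159 CPM in basal-like cells. Immune-like cells did not follow for Igfbp7, at 68.9 and 66.8 CPM, and held Igfbp2 at 19.97 and 26.7 CPM.

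**Figure D4:**
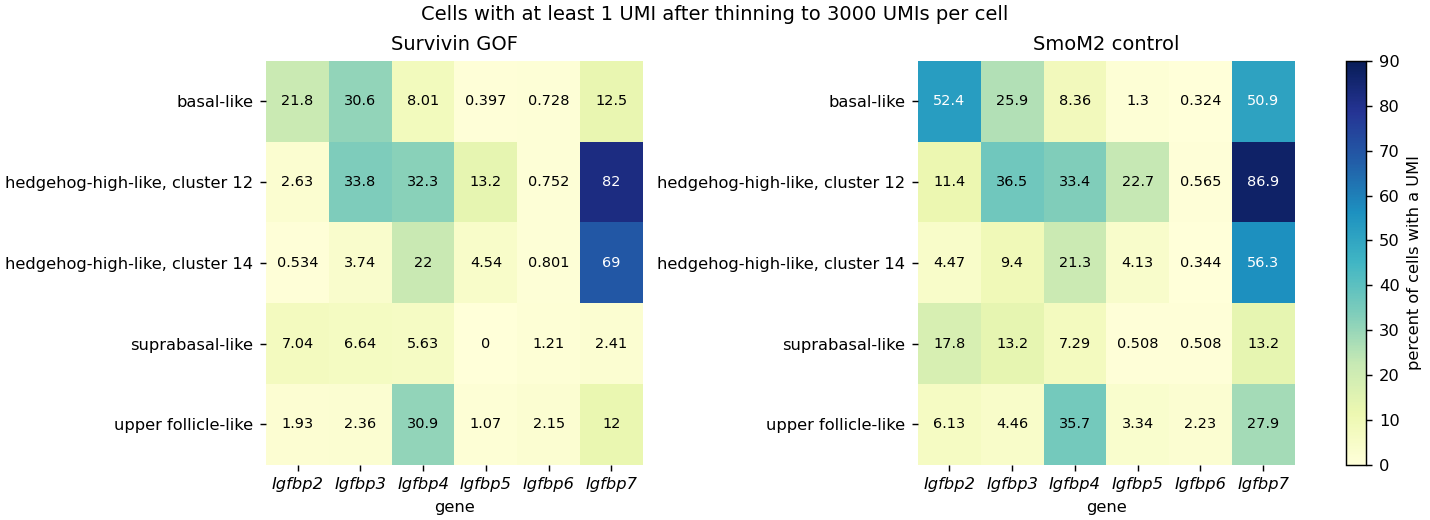
Percent of cells with at least 1 UMI of each gene after thinning to 3000 UMIs per cell (numbers and colour), by class, with Survivin GOF left and control right. Igfbp7 was detected in 12.5% of Survivin GOF and 50.9% of control basal-like cells, but in 82.0% and 86.9% of cluster 12.

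Members were combined in cells in different ways in the libraries. In 47.6% of Survivin GOF and 25.4% of control keratinocytes no member was detected after thinning, and in 15.1% and 34.8% at least 2 were. Igfbp5 was seldom alone: of cells with Igfbp5, 75.2% and 76.6% also held Igfbp7, the pair that shares the hedgehog-high-like clusters. Cells with both were 3.11 and 1.61 times as many as the product of their shares over all keratinocytes. Within cluster 12 they were only 1.19 and 1.06 times as many. Cells with both Igfbp2 and Igfbp7 were 0.495 times as many as the product of their shares in the Survivin GOF library, against 0.993 times in the control library. Igfbp2 and Igfbp3 were found together 1.599 and 1.26 times as often as that product. These ratios describe pooled classes with different levels and are not tests.

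Sebaceous-like and bulge-like cells were the other places with high levels. Igfbp4 stood at 332 and 272 CPM and Igfbp2 at 239 and 167 CPM in sebaceous-like cells, but within sebaceous-like cluster 17 Igfbp2 stood at 147 CPM in both libraries and within cluster 3 at 331 and 309 CPM. Cluster 17 had 99 Survivin GOF and 254 control cells, cluster 3 had 138 and 50, and the remaining cluster 16 had 1 and 221, so the libraries divided differently over the class. Igfbp7 stood at 8.35 and 87.5 CPM over the class. In control cells of cluster 16 it stood at 296 CPM, and it stood at 5.51 and 17.9 CPM in cluster 17 and at 11.3 and 23.5 CPM in cluster 3. In bulge-like cells, of which there were 158 and 100, Igfbp7 stood at 620 and 736 CPM, Igfbp4 at 204 and 228 CPM and Igfbp6 at 30.9 and 34.6 CPM, each within 1.5-fold. Bulge-like cells were thus the class with the highest Igfbp6 in both libraries.

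Each member's profile over 44 cluster-by-library points from 25 clusters was compared with those of 8985 genes (Pearson r of log2(CPM + 5)). Points share their library and its depth, so the values only describe likeness. Igfbp7 was most like Tnc (0.91), Plod1 (0.87), Synpo (0.86) and the hedgehog effector Gli2 (0.85). Igfbp5 was most like Pi15 (0.85), Col1a2 (0.85), Cyp27a1 (0.83) and Dio2 (0.82). The genes nearest to Igfbp3 were Ndufa4l2 (0.89), Satb1 (0.83), Sox6 (0.82) and Pkm (0.81). Igfbp2 went with Tmem266 (0.81), Acp5 (0.79), Oxct1 (0.79) and Gpt (0.77). The nearest to Igfbp4 were Acsf2 (0.90), Emb (0.88), Trp53i13 (0.83) and Cd200 (0.82), and to Igfbp6 Sardh (0.91), Fgf1 (0.88), Nbl1 (0.86) and Scx (0.86). Among the members, Igfbp5 and Igfbp7 were most alike (0.64), and Igfbp3 and Igfbp4 were among the least (-0.44).

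Over all keratinocytes, few genes of the rest of the IGF pathway passed 1.5-fold. Of 45 genes in the lists, 33 had at least 50 pooled UMIs, of which 1 was called higher (Itga5, a fibronectin receptor subunit, 3.43 and 2.23 CPM) and 1 lower (Irs1, an adaptor of the IGF-I and insulin receptors, 13.3 and 22.7 CPM), beside 6.82% and 5.41% of all genes. The median log2 ratio of the 33 was 0.05, against 0.08 over all genes. The ligands were nearly silent in these cells, with 4 and 17 UMIs of Igf1, 12 and 20 of Igf2 and 0 of Ins2. The receptors were present and, over all keratinocytes, alike. Igf1r stood at 61.3 and 61.0 CPM, Insr at 16.5 and 15.6 CPM and Igf2r, which clears IGF-II, at 14.2 and 14.6 CPM. None of the 5 proteases and protease inhibitors with enough UMIs passed 1.5-fold, among them Htra1 (94.8 and 94.5 CPM), which cleaves binding proteins, and Pappa (11.3 and 12.1 CPM). Of the 7 surface partners, Ptprz1, a receptor for Igfbp2, stood at 25.5 and 17.7 CPM (ratio 1.44), just inside the limit. Igfbp1, the liver member of the family, had no UMI in keratinocytes of either library.

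**Figure D5:**
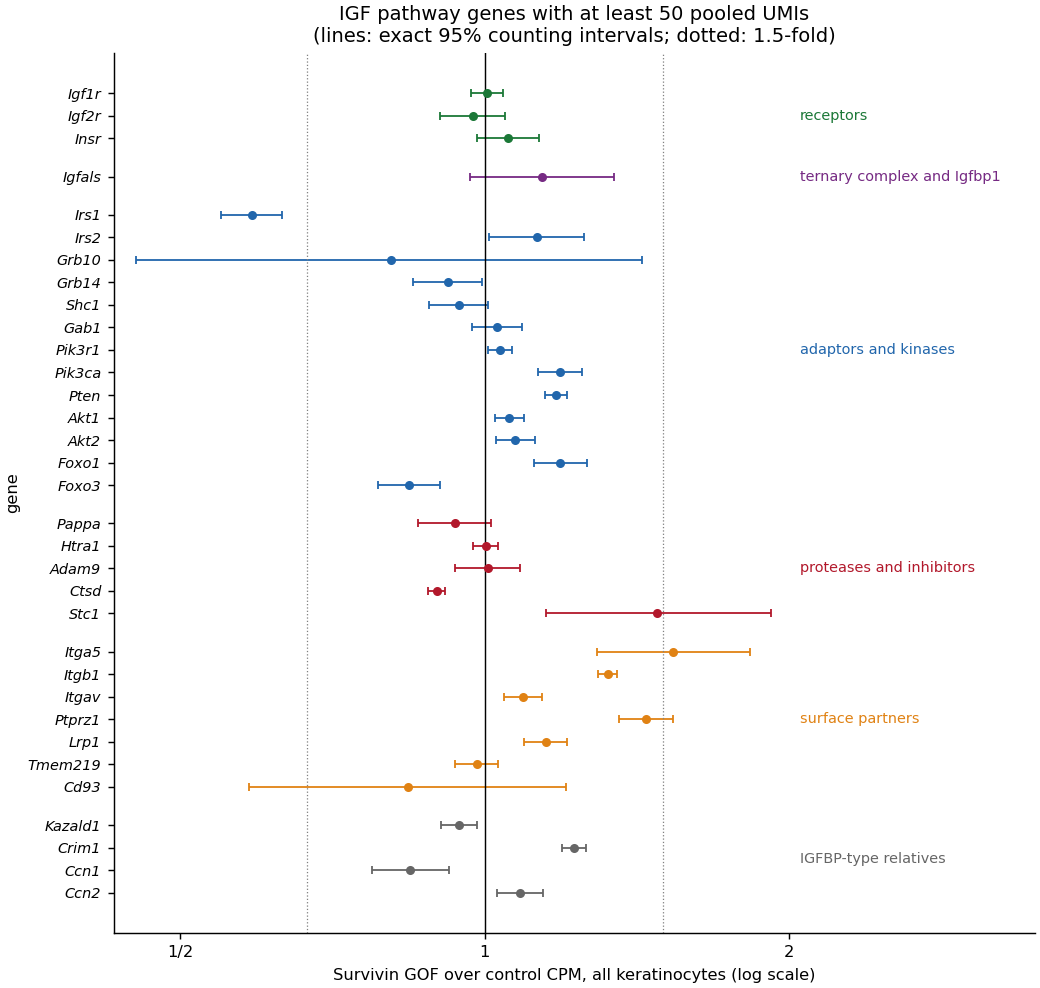
Ratio of CPM over all keratinocytes, Survivin GOF over control (log axis, lines for exact 95% counting intervals, dotted lines at 1.5-fold), for the 33 IGF pathway genes with at least 50 pooled UMIs, grouped by role. Irs1 (13.3 and 22.7 CPM) lies past the lower line and Itga5 (3.43 and 2.23 CPM) past the upper one.

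By class, the same lists gave most calls in cluster 12, where 5 of 28 genes were lower, beside 6.14% of all genes, and 0 higher, beside 5.62%. They included Irs1 at 38.5 and 67.2 CPM, Htra1 at 48.0 and 82.4 CPM and Pappa at 3.47 and 7.81 CPM. Also lower there were 1 of the 3 receptors and 1 of the 4 IGFBP-type relatives with enough UMIs. In upper follicle-like cells 3 of 27 were lower, beside 4.19%, among them Irs2 at 12.5 and 19.4 CPM, and 0 higher, beside 4.12%. In basal-like cells 2 of 29 genes were higher, beside 6.08%, and 1 lower, beside 4.15%, the lower one being Ccn2 at 1.596 and 4.65 CPM, a matricellular relative with an IGFBP-type domain. In cluster 14 the count was 1 higher (Itga5) of 30, beside 5.44%, and 0 lower, beside 4.86%. In suprabasal-like cells 1 of 25 was higher (Itgb1, 74.1 and 46.5 CPM), beside 5.04%, and 1 lower (Irs1, 2.59 and 9.29 CPM), beside 6.58%.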

How the data were processed

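The deposited matrices hold UMI counts per gene and barcode; per the submitters' processing notes Cell Ranger 6.1.1, R 4.3.0, Seurat 4.2.0 and build mm10 were used, and the labels state 8046 control cells and 10000 cells loaded per channel. No source used here states strand-specific counting. From the counts, barcodes with at least 1500 genes and at most 10% mitochondrial UMIs were kept. The doublet caller's own threshold marked 0 cells, so the top 6% of scores were removed (428 and 699 cells). Cells were clustered with scanpy 1.11.5 (2000 variable genes, 30 components, 15 neighbours, Leiden resolution 1), leaving out the 6 members, Birc5, YFP, mitochondrial, ribosomal and sex genes. A cluster took a class name when at least 3 markers and 30% of that list were past 2-fold. UMIs were summed per library and class. No test was possible with 1 library per genotype, and intervals were computed with scipy 1.17.1. The interval function was tested on simulated data. The text names the 6 members, genes of the IGF lists and the 4 most alike genes of each member. Alternatives covered filters, doublets, scaling, cell weights, resolution, sex and clusters with over 90% of cells from 1 library. The members and lists were chosen with earlier results of these data known.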

Additional observations from a re-analysis of the deposited data

Results flagged for a closer look

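The ratio of Survivin GOF to control CPM ran in opposite directions between cell groups for both Igfbp3 and Igfbp7. For Igfbp3 it was 1.45 in basal-like cells and 0.325 in upper follicle-like cells, and the upper follicle-like levels (7.21 and 22.2 CPM) were near background. For Igfbp7 it was 1.35 in cluster 14 and 0.217 in basal-like cells. With 1 library per genotype these differences were not tested. In male-called cells alone Igfbp3 stood at 131 and 163 CPM in basal-like cells, so its basal-like direction turned, whereas Igfbp7 kept both directions, at 525 and 382 CPM in cluster 14 and at 36.2 and 249 CPM in basal-like cells.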

How the results depend on the processing

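All values here are log2 ratios of Survivin GOF over control over all keratinocytes unless said otherwise. In male-called cells they were -0.60 for Igfbp2, -0.95 for Igfbp3, 0.16 for Igfbp4, -1.10 for Igfbp5, 1.16 for Igfbp6 and -1.13 for Igfbp7, so Igfbp3 passed 1.5-fold and Igfbp4 changed sign. Male-called cells also gave calls not made over all cells for Igfbp4 in cluster 12 (0.78) and Igfbp5 in cluster 14 (0.67). Without the 6 clusters mostly of 1 library they were -1.17 for Igfbp2, -0.29 for Igfbp3, -0.13 for Igfbp4 and -0.66 for Igfbp7. With median-of-ratios scaling they were -1.39, -0.18, -0.24 and -0.87 for the same genes, and with equal weight per cell -1.37, -0.18, -0.24 and -0.86, with -1.70 for Igfbp5. At a minimum of 2000 genes Igfbp3 stood at -0.042. The cause of these shifts was not tested. With no floor on counts the IGF lists gave 2 higher and 4 lower genes. The direction changed in male-called basal-like cells for Igfbp3 (0.53 over all, -0.31 male-called) and Igfbp4 (0.16 and -0.15). In suprabasal-like cells Igfbp4 went from 0.108 to -0.154 and -0.39 at Leiden resolution 0.6 and 1.6. With equal weight per cell it was -0.206 there. In cluster 12 it went from 0.03 to -0.041 with median-of-ratios scaling. No sign changed under the other alternatives run over all keratinocytes. The other 16 values over all keratinocytes moved by less than their counting interval, as did 143 class, cell-share and class-contrast values, while 74 moved by more. Median-of-ratios scaling shifted basal-like values by 0.10. Depth limits Igfbp5 and Igfbp6 most, with under 50 pooled UMIs in suprabasal-like cells. No paired analysis was possible because there was 1 library per genotype.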
